A study of Mus musculus with 4 samples.

Results

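The PGC-1, ERR and PPAR regulators of mitochondria were examined in the tibialis anterior (TA), the fast-twitch muscle along the shin, of control and exercised mice. They were the 9 genes of the expression table whose gene name was Ppargc1a, Ppargc1b, Esrra, Esrrg, Ppara, Ppard, Nrf1, Tfam or Perm1, out of 57180 genes in all, and each name matched 1 row. The control group was 2 libraries from sedentary mice, and the exercise group was 2 libraries from mice that were trained on a treadmill over 4 weeks (5 days each week, 45 min daily, 12 m/min). Training was preceded by 5 days of adaptation, at first with a speed of 8 m/min and 30 min daily. By the study's methods all were wild-type male C57BL/6J mice, aged 3 weeks when purchased, which was before the adaptation. An age of 8 weeks is given for TA of both groups in the study's figure legends. Whether each library came from 1 mouse is not given in the sources used here, so the spread between libraries may be technical in part. RNA abundance was given as TPM, which is corrected for transcript length and scaled to the same total in each library. Levels of different genes can thus be set side by side per length, and the level of each gene also depends on that of all others.

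PGC-1alpha (Ppargc1a) and PGC-1beta (Ppargc1b) are coactivators, proteins that bind DNA through partner transcription factors and raise the transcription of their target genes. Among these partners are the estrogen-related receptors (ERR), which drive genes of the respiratory chain and the citric acid cycle, the PPAR receptors, which are activated by fatty acids and drive genes of fat oxidation, and nuclear respiratory factor 1 (Nrf1), which drives genes such as Tfam, the factor that packages and transcribes mitochondrial DNA. In skeletal muscle this network is known for the response to endurance exercise, in which PGC-1alpha is induced for hours after a bout, and Perm1 is a muscle protein that is induced by PGC-1 and ERR and that takes part in the control of oxidative genes.

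The libraries of each group were alike (Pearson's r of log2(TPM + 1) across tested genes of 0.980 in control and 0.982 in exercise), and differed more between groups (0.940 to 0.947). A limma fit over the 13288 genes that reached 1 TPM in 2 or more libraries called 7344 genes higher and 822 lower in the exercise group, at an adjusted p under 0.05, and the median of the log2 fold changes over these genes was 0.53 and not 0. The 50 highest genes held 59.0 to 62.1% of TPM in control and 45.8 to 50.5% in exercise libraries. With median-of-ratios scaling, which sets the typical gene at no change, the median was 0.0047, and 1403 genes were called higher and 2238 lower. Both scalings are therefore given for each tested regulator. Xist, the RNA of the inactive X chromosome of female cells, stood at 14.9 and 11.7 TPM in the controls and at 0 and 0.07 TPM after exercise, while the Y-linked gene Eif2s3y stood at 0.30 and 0 TPM in the controls and at 16.7 and 25.2 TPM after exercise. Other Y-linked genes were lower in the controls but present, with Ddx3y at 10.04 and 12.1 TPM next to 41.2 and 37.6 TPM after exercise, Uty at 3.75 and 4.03 next to 11.6 and 11.1 TPM, and Kdm5d at 1.81 and 2.67 next to 7.45 and 8.5 TPM. The Xist level of the control libraries goes against the male mice that the study's methods name, the make-up of these libraries by sex was not resolved, and a difference of sex cannot be told apart from exercise in any result here.

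The 9 regulators spanned a wide range of levels in TA. In the control group Tfam had the highest mean TPM, followed by Esrra, Perm1, Ppard, Ppargc1a, Nrf1, Ppargc1b, Esrrg and Ppara. Of these neighbours only Ppargc1b and Esrrg overlapped between libraries. In the exercise group Tfam and Esrra overlapped. Of Nrf1, Ppard, Perm1 and Ppargc1a, which came next, each overlapped its neighbour in this order, but Ppargc1a was below Nrf1 and Ppard in both libraries. Ppargc1b, Esrrg and Ppara followed. Perm1 moved from rank 3 to rank 5, and Nrf1 from rank 6 to rank 3. Among all tested genes Tfam stood at percentile 83.2 of mean TPM, Esrra at 77.4, Perm1 at 63.0 and Ppargc1a at 40.8, so the best-known coactivator was below the typical tested gene.

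**Figure D1:**
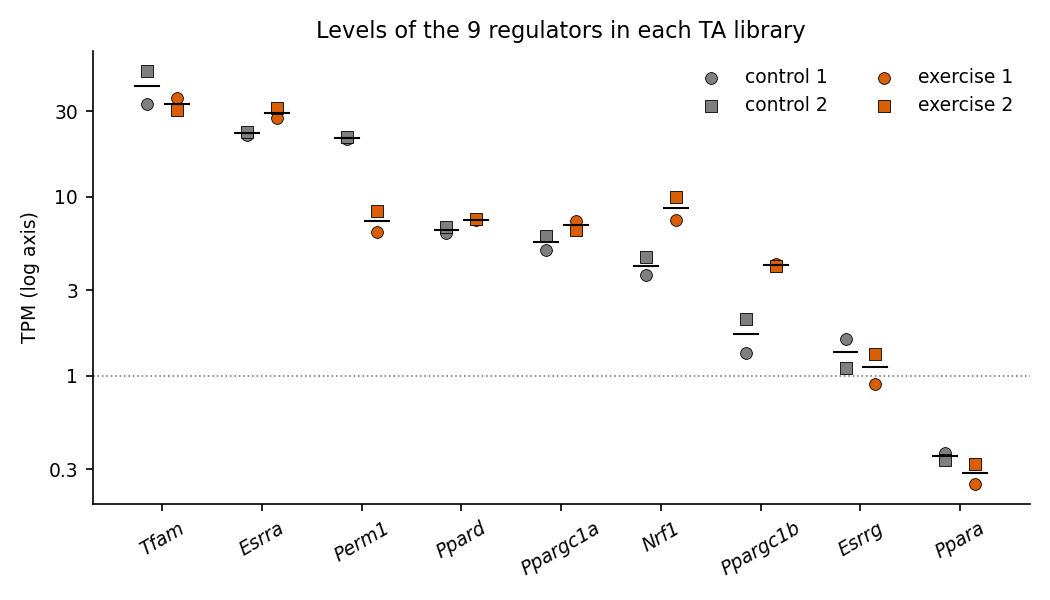
TPM of the 9 regulators (log axis) in the 2 control libraries (grey) and the 2 exercise libraries (orange), with circles for replicate 1, squares for replicate 2 and a line at each group's mean. The dotted line marks 1 TPM. Perm1 fell from 20.9 and 21.5 TPM to 6.37 and 8.27 TPM, while the points of Tfam and Esrrg overlap between groups.

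Promoter sequence from RefSeq (mouse build GRCm38.p6, which is not the build of the expression table, GRCm39) was found for 8 of the 9 regulators, as 12 windows of 250 bases before to 50 bases after a start. Short motifs of the factors of this network were searched on both strands. The NRF1 site GCATGCGC was in the windows of Esrra and Ppara and in 2.71% of 32851 promoters, and the GABP site CCGGAAGT, a motif of the ETS factor also called NRF-2, was in that of Tfam and in 3.89% of promoters. The ERR response element TCAAGGTCA (0.423% of promoters) and the cAMP response element TGACGTCA (1.79%) had no match in the 12 windows. The 150 bases before the start are shown for Perm1, the regulator that fell, and for Tfam and Esrra, which hold a motif, with the motif in capitals.
Perm1 promoter, chr4:156215777-156215926, plus strand: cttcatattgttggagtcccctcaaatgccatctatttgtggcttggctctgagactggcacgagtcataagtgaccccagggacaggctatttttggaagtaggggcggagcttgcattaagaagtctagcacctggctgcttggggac
Tfam promoter, chr10:71238045-71238194, minus strand: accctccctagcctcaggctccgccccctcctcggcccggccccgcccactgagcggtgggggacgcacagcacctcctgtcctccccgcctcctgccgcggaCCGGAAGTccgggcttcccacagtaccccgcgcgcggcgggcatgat
Esrra promoter, chr19:6921809-6921958, minus strand: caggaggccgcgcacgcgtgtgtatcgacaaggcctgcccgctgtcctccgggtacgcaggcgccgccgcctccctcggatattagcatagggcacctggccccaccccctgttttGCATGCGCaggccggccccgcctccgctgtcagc
The motif of Tfam began at position -47 and that of Esrra at position -34 from the start. In Ppara the motif was at position -31 on the reverse strand and at -29 as read, and these matches overlap. The windows of Tfam and Esrra had a GC content of 70.3 and 66.0%, and that of Perm1 52.3%, next to a median of 52.7% over all promoters. A motif match is a description of the letters and not a measure of binding.

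Of the coactivators, PGC-1beta rose in the exercise group while the difference of PGC-1alpha did not pass the test. Ppargc1a was at 5.04 and 6.06 TPM in the controls and at 7.32 and 6.54 TPM after exercise. Both exercise libraries were above both control libraries, but the nearest of them differed by less than the control libraries did from each other. The log2 fold change was 0.28 (SE 0.16, adjusted p = 0.17 from limma), which was 0.25 below the median of all genes, and after median-of-ratios scaling it was -0.27 (adjusted p = 0.20). The table gives 1 value per gene, so the isoforms of PGC-1alpha were not separated. The time from the last treadmill session to the collection of TA is not given in the study's methods, so a brief rise after a bout could have been missed. Ppargc1b was at 1.34 and 2.08 TPM in the controls and at 4.20 and 4.09 TPM after exercise. Its groups lay far apart, and its mean was 1.71 ± 0.523 TPM (control) and 4.15 ± 0.0778 TPM (exercise), as mean ± SD of 2 libraries, which is 2.42-fold. The log2 fold change was 0.94 (SE 0.19, adjusted p = 0.0074 from limma), and after median-of-ratios scaling it was 0.48 and no longer called (adjusted p = 0.0998). All log2 fold changes from limma here are on the log2(TPM + 1) scale, which understates the change of genes as low as this one. Values such as 2.42-fold, and the ratios within a library given below, use TPM itself. The third member of the family, Pprc1, which is known as a coactivator of NRF1 in growing cells, was at 3.74 and 4.64 TPM in the controls and at 10.03 and 11.5 TPM after exercise. It rose by 1.18 (adjusted p = 0.0032 from limma) and was also called after median-of-ratios scaling (0.63, adjusted p = 0.021).

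The receptors of the ERR group were unequal in level, and neither Esrra nor Esrrg passed the test. Esrra, which encodes the abundant ERRalpha, was at 22.1 and 23.1 TPM in the controls and at 27.5 and 31.1 TPM after exercise. The exercise libraries were the higher ones, at 1.30-fold the control mean. The log2 fold change of 0.36 (SE 0.13, 95% interval 0.04 to 0.68) was just outside the threshold (adjusted p = 0.053 from limma), and it was called with a mean of at least 5 TPM (adjusted p = 0.041) or with protein-coding genes alone (adjusted p = 0.045). After median-of-ratios scaling it turned to -0.25 (adjusted p = 0.076), and after quantile normalization to -0.14. Esrra overlaps Trmt112, which encodes an activator of methyltransferases, on the opposite strand, and Trmt112 was at 30.3 and 31.4 TPM in the controls and at 38.2 and 42.1 TPM after exercise. The labels name a stranded kit and the study's methods another one, and without strand the reads of the overlapping part cannot be told apart. Esrrg, which encodes ERRgamma and is known from slow, oxidative muscle, was at 1.61 and 1.10 TPM in the controls and at 0.90 and 1.33 TPM after exercise. Its groups overlapped, and the log2 fold change was -0.15 (95% interval -0.64 to 0.33, adjusted p = 0.52 from limma), or -0.51 with median-of-ratios scaling (adjusted p = 0.13). Esrrb, the remaining receptor of the group, was at 1.21 and 1.79 TPM in the controls and at 3.67 and 3.77 TPM after exercise. It was called higher (log2 fold change 0.93, adjusted p = 0.0068 from limma) on the deposited scale and not after median-of-ratios scaling (0.49, adjusted p = 0.081).

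Of the PPAR receptors, Ppard was the main one at the RNA level and Ppara was close to the floor of the table. Ppard, which encodes the receptor known to promote fat oxidation in muscle, was at 6.22 and 6.78 TPM in the controls and at 7.41 and 7.46 TPM after exercise. The exercise libraries were above the control libraries by little, and the log2 fold change of 0.17 did not pass (95% interval -0.17 to 0.51, adjusted p = 0.32 from limma). After median-of-ratios scaling it was -0.39 (adjusted p = 0.054). Ppara, the receptor best known from liver and heart, was at 0.37 and 0.34 TPM in the controls and at 0.25 and 0.32 TPM after exercise, under 1 TPM in all 4, and was left out of the test. Both exercise libraries were slightly below both control libraries. In a fit without a filter on low values (27036 genes) its log2 fold change was -0.08 (adjusted p = 0.52 from limma). Pparg, the receptor that drives adipocyte formation, was named after its values were seen. It was at 0.89 and 3.31 TPM in the controls and at 0.88 and 1.5 TPM after exercise. The second control library alone stood apart, and this library also had the highest summed level of 8 white adipocyte markers (283 TPM, next to 69.1 TPM in the first control library and to 5.48 and 17.2 TPM in the exercise libraries). The log2 fold change of Pparg was -0.40 (adjusted p = 0.39), -0.99 without control replicate 1 (adjusted p = 0.025) and 0.20 without control replicate 2 (limma). The part of adipocytes in these values was not tested, and in bulk tissue fewer cells of a type and less RNA per cell cannot be told apart.

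Nrf1 rose and Tfam, which NRF1 is known to drive, did not pass the test. Nrf1 was at 3.64 and 4.58 TPM in the controls and at 7.35 and 9.97 TPM after exercise. The groups were apart, with a mean of 4.11 ± 0.665 TPM (control) and 8.66 ± 1.85 TPM (exercise), as mean ± SD of 2 libraries, which is 2.11-fold. The log2 fold change was 0.91 (SE 0.19, adjusted p = 0.0087 from limma). The call was lost without exercise replicate 2 (0.71, adjusted p = 0.065) and after median-of-ratios scaling (0.37, adjusted p = 0.13). Tfam was at 33.0 and 49.95 TPM in the controls and at 35.3 and 30.2 TPM after exercise. The second control library was the high one, and the first lay between the exercise libraries. On the deposited scale the log2 fold change was -0.31 (SE 0.21, adjusted p = 0.24 from limma), and it was -0.60 without control replicate 1 (adjusted p = 0.027) and -0.01 without control replicate 2 (adjusted p = 0.95). After median-of-ratios scaling Tfam was called lower (-0.92, adjusted p = 0.033), and after quantile normalization as well (-0.76, adjusted p = 0.0465).

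Perm1 had the largest difference of the 9 regulators, and it was the only one called under every scaling. It was at 20.9 and 21.5 TPM in the controls and at 6.37 and 8.27 TPM after exercise. The control libraries were nearly equal, and both exercise libraries were far below them, at 34.6% of the control mean (7.32 ± 1.34 next to 21.2 ± 0.389 TPM, SD, n = 2 each). The log2 fold change was -1.42 (SE 0.16, 95% interval -1.81 to -1.04, adjusted p = 0.0028 from limma), and relative to the median of all genes it was -1.95. It stood at percentile 1.07 of all tested genes, and 137 of the 822 genes called lower had a lower value. With any 1 library left out it was -1.59 to -1.26 (adjusted p of 0.0058 to 0.036), and after median-of-ratios scaling it was -2.01 (adjusted p = 0.0066). No annotated gene overlaps Perm1 in GENCODE vM21.

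**Figure D2:**
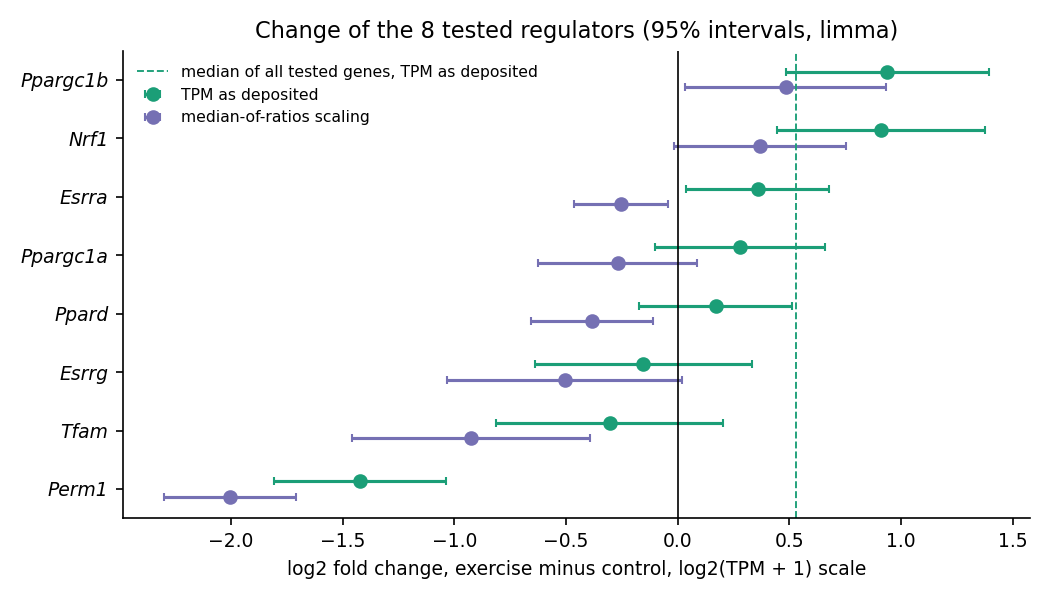
Log2 fold change (exercise minus control, log2(TPM + 1) scale) of the 8 tested regulators with 95% intervals from limma, for TPM as deposited (green) and after median-of-ratios scaling (purple). The dashed line is the median of all tested genes at 0.53. The interval of Perm1 lies below 0 under both scalings (-1.81 to -1.04 and -2.30 to -1.71), while Esrra, Ppargc1a and Ppard change sign between them.

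Taking the members as a group, Ppargc1b and Nrf1 were called higher, that is 2 of the 8 tested, where 55.3% of all tested genes were called higher. One call was lower (Perm1, 1 of 8), where 6.19% of all genes were. In 5 members both exercise libraries were above both control libraries, which held for 72.8% of all genes, and in 1 both were below, which held for 10.5%. The median log2 fold change of the 8 tested members was 0.22, next to 0.53 over all tested genes. After median-of-ratios scaling 0 of 8 were called higher, where 10.6% of all genes were, and 2 of 8 (Perm1 and Tfam) were called lower, where 16.8% were. The median was then -0.33, next to 0.0047 over all genes. With 2 libraries against 2, the smallest two-sided p of an exact permutation test is 0.333, so each call rests on the spread that limma shares across genes.

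Ratios between regulators within 1 library do not depend on the scaling between libraries. Perm1 was lower against each of the other 8 regulators in both exercise libraries, in all 8 of the 36 pairs that include it. These 8 pairs share the fall of Perm1 itself, whose log2 fold change stood at percentile 1.07 of all tested genes. The share of all genes against which Perm1 was lower was not counted. Esrra stood at 1.06 and 1.07 times the TPM of Perm1 in control and at 4.31 and 3.76 times in exercise libraries, a difference of 1.92 on the log2 scale. The ratio of Ppargc1a to Perm1 was 0.241 and 0.282 in control and 1.15 and 0.791 in exercise libraries (log2 difference 1.87). The coactivator and the gene that it is known to induce thus went from unequal to nearly equal levels. Ppargc1a stood at 3.76 and 2.91 times Ppargc1b in control and at 1.74 and 1.599 times in exercise libraries (-0.99), so the balance between both PGC-1 genes moved toward PGC-1beta, while Ppargc1a to Esrra overlapped (0.228 and 0.263 in control, 0.267 and 0.210 in exercise libraries).

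Nrf1 stood at 0.110 and 0.0917 times Tfam in control and at 0.208 and 0.330 times in exercise libraries, a log2 difference of 1.38. The ratio of Esrra to Esrrg was 13.7 and 20.95 in control and 30.5 and 23.4 in exercise libraries (0.66). Tfam was also set against the summed TPM of the 13 protein genes of the mitochondrial genome, and this ratio overlapped between groups (log2 difference -0.04). Perm1 was set against Ckm, the abundant creatine kinase of muscle fibres, which itself fell from 13120 and 14004 TPM to 7303 and 6057 TPM. The ratio of Perm1 to Ckm was 0.00159 and 0.00153 in control and 0.000872 and 0.00137 in exercise libraries (-0.52). These ratios are given for each library and were not tested.

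**Figure D3:**
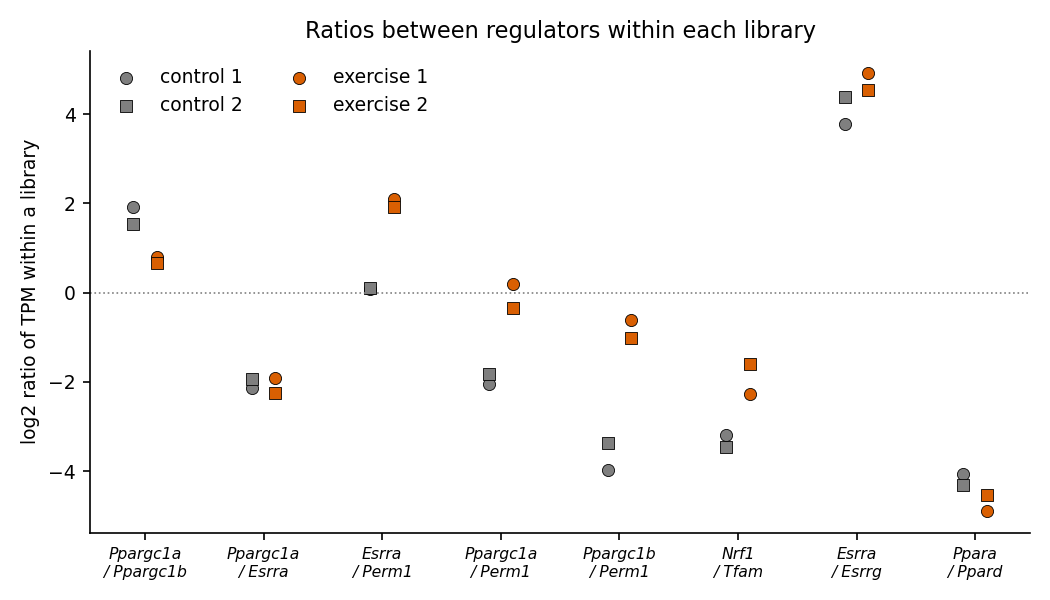
Log2 ratio of TPM of 2 regulators in the same library, for 8 pairs, in control (grey) and exercise (orange) libraries. The 3 pairs drawn with Perm1 (Esrra, Ppargc1a and Ppargc1b) move up by 1.92, 1.87 and 2.86 in the exercise group, where all 8 such pairs span 1.22 to 2.86, Ppargc1a to Ppargc1b moves down by 0.99, and Ppargc1a to Esrra overlaps.

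Of 27 coactivator partners and corepressors, 16 were called higher and 1 lower, where 55.3% and 6.19% of all genes were. Their median log2 fold change was 0.67, next to 0.53 over all genes. After median-of-ratios scaling 1 (Pprc1) was higher and 5 lower (median 0.05), where 10.6% and 16.8% of all genes were. Gabpa, the DNA-binding subunit of GABP, was at 10.2 and 10.6 TPM in the controls and at 20.37 and 20.41 TPM after exercise. Its exercise libraries were close to each other, and it rose by 0.91 on the log2 scale (adjusted p = 0.0034 from limma), a call that was lost after median-of-ratios scaling (0.31, adjusted p = 0.069). Smyd1, a methyltransferase of muscle and the most abundant gene of this list, overlapped between groups (187 and 276 TPM in the controls, 212 and 209 TPM after exercise, log2 fold change -0.11). The gene called lower was Lpin1 (-1.11), which encodes the coactivator and lipid phosphatase lipin-1 (-0.88, adjusted p = 0.064 from limma, without exercise replicate 2).

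Genes upstream of Ppargc1a went both ways. Of 27 tested, 13 were called higher and 5 lower (median log2 fold change 0.30), where 55.3% and 6.19% of all genes were. After median-of-ratios scaling 4 were higher and 11 lower (median -0.18), where 10.6% and 16.8% of all genes were. Mef2c, a transcription factor of muscle, was at 196 and 237 TPM in the controls and at 484 and 495 TPM after exercise, and rose by 1.18 (adjusted p = 0.0028 from limma) and by 0.55 after median-of-ratios scaling. AMPK, the energy-sensing kinase, had subunits on both sides. Prkaa1, its catalytic subunit alpha1, rose by 1.12 (10.5 and 12.8 TPM in the controls, 25.8 and 26.9 TPM after exercise, adjusted p = 0.0030 from limma). Prkaa2, the alpha2 subunit that prevails in muscle fibres, was called lower (-0.73), and so were its partner Prkab2 (-0.83), the lysosome regulator Tfeb (-0.57), the calcineurin subunit Ppp3ca (-0.53) and the p38 kinase Mapk14 (-0.50). The choice of these 5 genes was made with their values in view, and without exercise replicate 2 all 5 calls were lost (adjusted p of 0.076 to 0.18 from limma). Without control replicate 2 the values of Prkaa2, Ppp3ca and Mapk14 were -0.50, -0.34 and -0.37 and were not called either.

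Genes of mitochondrial DNA upkeep and expression were called higher in 7 and lower in 0 of 17 cases on the deposited scale (median 0.36). Over all genes 55.3% and 6.19% were. After median-of-ratios scaling 0 were higher and 0 lower (median -0.22), where 10.6% and 16.8% of all genes were. Slirp, an RNA-binding protein that stabilises mitochondrial mRNA, was at 24.5 and 25.9 TPM in the controls and at 43.4 and 47.5 TPM after exercise. It rose by 0.83 (adjusted p = 0.0038 from limma), and the value was 0.21 after median-of-ratios scaling. Mterf1a, a terminator of mitochondrial transcription, was at 1.31 and 1.44 TPM in the controls and at 4.25 and 3.26 TPM after exercise (log2 fold change 0.99, adjusted p = 0.0053, and 0.56 with an adjusted p of 0.076 after median-of-ratios scaling). Ssbp1, the single-strand binding protein of mitochondrial DNA, was at 46.1 and 46.15 TPM in the controls and at 66.6 and 64.9 TPM after exercise (0.50, adjusted p = 0.012), and turned to -0.12 after median-of-ratios scaling. The call of Ssbp1 was also lost without either exercise library (adjusted p of 0.089 and 0.092). The 13 protein genes of the mitochondrial genome had a median of -0.16, with 0 called in either direction, next to the same shares of all genes on the deposited scale. The value was -0.35 for mt-Co1, a subunit of cytochrome c oxidase (adjusted p = 0.10), and -0.38 for mt-Atp8, a subunit of the ATP synthase (adjusted p = 0.12). Under median-of-ratios scaling 7 of these 13 genes were called lower (median -0.80), where 16.8% of all genes were. After quantile normalization 0 were (median 0.08). That method gives genes of equal rank in each library the same value, and these genes stood at percentiles 99.3 to 100 of mean TPM. A change shared by the highest genes is thus largely removed by it, and the 0 calls cannot decide whether these genes fell.

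Genes known as targets of ERR and PGC-1 in oxidative metabolism were called lower in 8 and higher in 0 of 38 cases, where 6.19% and 55.3% of all genes were. Their median log2 fold change was -0.15, which is below the 0.53 of all genes. After median-of-ratios scaling 33 were called lower and 0 higher (median -0.78), where 16.8% and 10.6% of all genes were. After quantile normalization 25 were called lower and 0 higher (median -0.49), where 1748 and 2185 of all 13288 genes were. Idh3b, a subunit of isocitrate dehydrogenase, was at 229 and 227 TPM in the controls and at 141 and 139 TPM after exercise (log2 fold change -0.70, adjusted p = 0.0043 from limma). Slc25a4, the exchanger of ADP and ATP across the inner membrane, was at 1347 and 1270 TPM in the controls and at 862 and 879 TPM after exercise (-0.59, adjusted p = 0.0078). Both genes had groups that were far apart and libraries that were close, but without exercise replicate 2 the adjusted p was 0.052 for Idh3b and 0.063 for Slc25a4, and 0.053 for Slc25a4 without exercise replicate 1. Atp5f1b, the most abundant of the list and a catalytic subunit of the ATP synthase, did not pass (1734 and 1420 TPM in the controls, 1768 and 2066 TPM after exercise, 0.28, adjusted p = 0.15), and its value was -0.35 after median-of-ratios scaling.

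Target genes of the PPAR receptors in fat oxidation were called higher in 3 and lower in 5 of 24 cases (median -0.15), where 55.3% and 6.19% of all genes were. After median-of-ratios scaling 0 were called higher and 17 lower (median -0.78), where 10.6% and 16.8% of all genes were. Lpl, the lipase that frees fatty acids from lipoproteins, was at 92.2 and 124 TPM in the controls and at 35.7 and 50.4 TPM after exercise, and fell by 1.31 (adjusted p = 0.0043 from limma). Adipocytes also express Lpl, and the adipocyte markers were lower in both exercise libraries, as given above for Pparg. Decr1, an enzyme of the oxidation of unsaturated fatty acids, was at 26.9 and 32.3 TPM in the controls and at 16.5 and 17.3 TPM after exercise, and fell by 0.77 (adjusted p = 0.0062, and 0.0503 without exercise replicate 2). The other genes called lower were Acsl1 (-0.67), which activates long-chain fatty acids, the dehydrogenase gene Acadm (-0.64) and Cpt1b (-0.61), the entry step of fatty acids into muscle mitochondria. The genes called higher were Angptl4 (1.06), an inhibitor of Lpl, the uncoupling protein gene Ucp3 (0.63) and Acadl (0.51), which turned to -0.13 after median-of-ratios scaling. These 6 genes lost their call without either exercise library. Angptl4 was just inside the threshold (adjusted p = 0.049 from limma) and was 0.43 without control replicate 1, where it was not called, and 1.69 without control replicate 2. Acsl1 was -1.02 without control replicate 1 and -0.32 without control replicate 2, where it was not called. Cpt1b was not called without control replicate 2 (-0.45), nor Acadl without control replicate 1 (0.41), and Ucp3 was at 0.0034 after median-of-ratios scaling. Fabp3, the fatty acid binding protein with the highest level in the list, overlapped between groups (265 and 316 TPM in the controls, 246 and 294 TPM after exercise, -0.11).

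Among 17 tested genes of other functions known to follow PGC-1alpha, 3 were called higher and 5 lower (median -0.04), where 55.3% and 6.19% of all genes were. After median-of-ratios scaling 2 were called higher and 9 lower (median -0.67), where 10.6% and 16.8% of all genes were. Slc2a4, the insulin-regulated glucose transporter GLUT4, was at 138 and 157 TPM in the controls and at 72.1 and 60.3 TPM after exercise. It fell by 1.14 (adjusted p = 0.0030 from limma). Ucp2, an uncoupling protein of many cell types, was at 26.9 and 40.0 TPM in the controls and at 94.3 and 112 TPM after exercise, and rose by 1.62 (adjusted p = 0.0030). The other genes called were Fndc5 (1.10), the precursor of irisin, the superoxide dismutase gene Sod2 (0.45 and -0.18 after median-of-ratios scaling), the orphan receptor Nr4a1 (-0.67), the mitochondrial fusion gene Mfn2 (-0.63), Tfeb and the kynurenine aminotransferase gene Kyat3 (-0.54). Without exercise replicate 2 the calls of Sod2 (0.28), Nr4a1 (-0.44), Mfn2 (-0.62), Tfeb (-0.59) and Kyat3 (-0.65) were lost, and those of Sod2 and Kyat3 were lost whichever library was left out. Got2, a mitochondrial aminotransferase with the highest level here, had a value of -0.15.

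**Figure D4:**
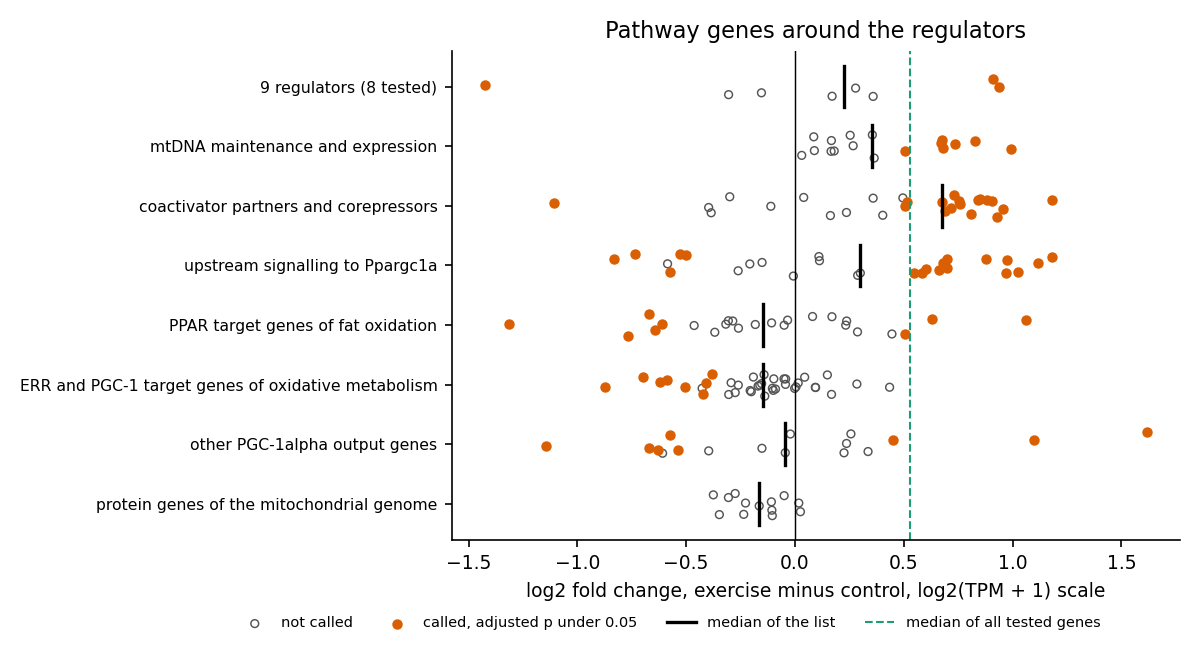
Log2 fold change (exercise minus control, log2(TPM + 1) scale, TPM as deposited) of each tested gene of the regulators and of 7 lists of related genes. Filled points passed an adjusted p under 0.05 in limma, black bars are list medians and the dashed line is the median of all tested genes (0.53). The target lists have medians of -0.15, -0.15 and -0.04 and the partner list one of 0.67, and these medians drop to -0.78, -0.78, -0.67 and 0.05 after median-of-ratios scaling.

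Markers of fibre type and of white adipocytes also differed between the groups, while the summed endothelial and brown adipocyte markers overlapped. The brown adipocyte sum (1155 and 977 TPM in the controls, 1068 and 1045 TPM after exercise) was nearly all Cox8b. Cox8b was at 1140 and 960 TPM in the controls and at 1031 and 1002 TPM after exercise, percentile 99.3 of mean TPM. The sum therefore says little about the other brown adipocyte markers. The part of fibre type and of other cells in the values above was not tested. The counts below stand next to 55.3% of all tested genes called higher and 6.19% called lower. After median-of-ratios scaling these shares were 10.6% and 16.8%. Of 10 slow fibre markers 7 were called higher and 0 lower, with a summed level of 3509 and 4646 TPM in the controls and 8941 and 14500 TPM after exercise. With median-of-ratios scaling 4 were called higher, 0 lower. The remaining 3 did not pass and were low in exercise replicate 1, where Myl2 was at 8.74 TPM (67.5 and 198 TPM in the controls, 1872 TPM in exercise replicate 2), Myl3 at 0.81 TPM (28.9 and 47.9 TPM, and 465 TPM) and Myh2 at 8.82 TPM (66.1 and 66.7 TPM, and 60.9 TPM). Myh2 encodes a myosin of fast oxidative fibres, and its change was -1.45 on the log2 scale (limma adjusted p = 0.13). Of 10 fast fibre markers 0 were called higher and 7 lower, with 144800 and 151600 TPM in the controls and 119700 and 102400 TPM after exercise, and with median-of-ratios scaling 8 were called lower. The fast markers far exceeded the slow ones in all 4 libraries, as is known of TA. Of 7 tested white adipocyte markers all 7 were called lower (6 after median-of-ratios scaling), and none of the 8 was at 0 in all libraries. Brown adipocytes had 2 of 4 tested markers called higher (Dio2, 1.36, and Cidea, 0.52) and 0 lower, with Ucp1 listed at 0, and after median-of-ratios scaling 1 was higher (Dio2) and 1 lower (Cox8b). The call of Cidea was lost whichever library was left out. Macrophage markers summed to 61.9 and 47.1 TPM in the controls and to 25.3 and 40.0 TPM after exercise, with 1 of 8 called lower (Lyz2, -1.16) and 3 of 8 after median-of-ratios scaling. Endothelial markers summed to 72.2 and 45.8 TPM in the controls and to 70.8 and 73.6 TPM after exercise, with 1 of 8 called higher and 0 lower (Cldn5, 1.03, and 0.83 with an adjusted p of 0.055 without exercise replicate 2), and with median-of-ratios scaling 0 were called higher, 1 lower.

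The genes of most alike pattern were found by the root mean square difference of centred log2(TPM + 1) over the 4 libraries, among genes whose mean reached 5 TPM. For Perm1 they were Smyd2, a lysine methyltransferase, with a difference of 0.0749, and the non-coding RNA Gm12224 with 0.0921. Smyd2 was at 136 and 131 TPM in the controls and at 48.5 and 60.3 TPM after exercise, and Gm12224 at 93.05 and 88.95 TPM in the controls and at 34.3 and 40.05 TPM after exercise. Both were thus high in the control libraries and low in the exercise libraries, with log2 fold changes of -1.29 and -1.27. For Ppargc1a the nearest genes were Tbx15 (0.0158), a T-box factor of fast fibres, and the kinase gene Tlk2 (0.0164). For Esrra they were Ngrn (0.00788), a factor of mitochondrial ribosome assembly, and Sgsm3 (0.00971). This likeness over 4 libraries describes levels and not function.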

How the data were processed

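RNA of TA was measured in 4 libraries, 2 of the control and 2 of the exercise group. The authors deposited TPM for 57180 genes with Ensembl identifiers, made with fastp, HISAT2 and StringTie on GRCm39 by the submitters' processing notes, with no versions. Read depth cannot be had from TPM, so no counting error is given, and precision is limited by having 2 libraries in each group. The library kit is Illumina Stranded mRNA Prep by the labels and NEBNext Ultra by the study's methods. The study used DEGseq, which needs read counts, so it was not run.

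Genes that reached 1 TPM in 2 or more of the 4 libraries were tested on log2(TPM + 1) with the trended eBayes fit of limma 3.58.1 (R 4.3.3), with no covariate and a Benjamini-Hochberg adjusted p under 0.05 over all 13288 genes. The fit was tested on simulated data with normal noise and no shift of the typical gene. That test therefore does not cover the shift of the median seen in these libraries. The rule for named genes took the 9 regulators, per list the 2 genes of smallest p and the 1 of highest mean TPM, and the 2 genes of most alike pattern. Pprc1 is named by that rule, and Esrrb, Pparg, Trmt112, Ckm, Xist, the Y-linked genes, Myl2, Myl3, Myh2, Cox8b and the members of list counts of 5 or fewer were chosen after their values were seen. The members and the lists were chosen with earlier results of these data known. In all, 19 alternatives were run: other pseudocounts (0.1 and 0.01), no filter or a filter at a mean of 5 TPM, median-of-ratios, quantile and upper-quartile scaling, rescaling without the 50 highest or the mitochondrial genes, protein-coding genes alone, limma without trend or robust, stricter thresholds, leaving out each library, and a block for the replicate number. Promoters are from RefSeq (GRCm38.p6) and overlaps from GENCODE vM21. Tables and figures were made in Python 3.11.15 with pandas 2.3.3, numpy 2.4.6 and matplotlib 3.10.9.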

Additional observations from a re-analysis of the deposited data

How the results depend on the processing

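The regulators called numbered 2 higher and 1 lower, and 0 and 2 after median-of-ratios, quantile and upper-quartile scaling. With no filter 0 were called higher (adjusted p = 0.055 for Ppargc1b and 0.057 for Nrf1), and with the study's threshold (adjusted p under 0.001 and fold over 1.5) 0 were higher and 0 lower. The study used that threshold with DEGseq, while here it was applied to limma on log2(TPM + 1). Counts at this threshold can therefore not be set against the study's own counts. Leaving out 1 library gave 1 to 2 higher and 1 to 2 lower. Over all genes, in place of 7344 higher and 822 lower, the counts were 4513 and 456 with no filter, 1403 and 2238 with median-of-ratios scaling, 2185 and 1748 with quantile normalization, 2251 and 1818 after upper-quartile scaling, 3432 and 1508 without the 50 highest genes, 4158 and 393 at an adjusted p under 0.01, and 2 and 1 at the study's threshold. Leaving out 1 library gave 2622 to 7039 higher and 410 to 814 lower, with the fewest without exercise replicate 2, where the lone library of a group is assumed to vary like the others. Perm1 was called lower in 18 of 19 alternatives (all but the study's threshold), Ppargc1b in 13 of 18 and Nrf1 in 13 of 19.

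These log2 fold changes turned sign, in the order of median-of-ratios, quantile, upper-quartile scaling and removal of the 50 highest genes. Ppargc1a gave -0.27, -0.24, -0.17 and -0.073, and Esrra -0.25, -0.14, -0.14 and -0.029. Ppard gave -0.39, -0.36, -0.29 and -0.19, and Trmt112 -0.25, -0.087, -0.14 and -0.026. Ngrn gave -0.24, -0.15, -0.13 and -0.021, Sgsm3 -0.21, -0.17, -0.11 and -0.0022, Tbx15 -0.38, -0.13, -0.27 and -0.15, and Tlk2 -0.30, -0.20, -0.19 and -0.079. Atp5f1b gave -0.35 after median-of-ratios scaling, -0.24 after upper-quartile scaling and -0.12 without the 50 highest genes. After median-of-ratios and upper-quartile scaling Acadl gave -0.13 and -0.012, Sod2 -0.18 and -0.067, and Ssbp1 -0.12 and -0.0094. mt-Co1 gave 0.13 after quantile normalization. With 1 library left out, Esrrg ranged from -0.31 to 0.0028, Pparg from -0.99 to 0.20, and the highest values of Fabp3 and Smyd1 were 0.021 and 0.17.

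The replicate number as a block gave 3 regulators higher (Ppargc1b, Nrf1 and Esrra, adjusted p = 0.037 for the last) and 1 lower. Same-numbered libraries did not deviate together over all tested genes (r = -0.05). The labels do not say what the numbers mean, and an r over all genes cannot exclude a pairing that touches some of them. Depth is unknown in TPM, and low genes such as Ppara, Esrrg and Ppargc1b are limited by it to an extent that was not tested.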
